A study of Danio rerio with 20 samples.

Results

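Keratins and glial intermediate filament genes were followed in reporter-positive cells of the adult zebrafish spinal cord after injury. The set was given as 10 symbols, which matched 10 rows among the 32266 Ensembl genes of the count table when case was ignored. The symbol krt18 had no row of its own and is an older name of krt18a.1 in the RefSeq names, while VIM matched 2 rows, which are told apart here by their identifiers. The genes were chosen by their lesion and sham counts in these libraries, so the values of that comparison are given for them as a description, without p-values.

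Intermediate filaments are the flexible, rope-like part of the cytoskeleton. Keratin filaments form only from pairs of an acidic type I chain and a basic type II chain, and keratin 8 (type II) with keratin 18 (type I) is the pair of simple epithelia in mammals. Glia and neural progenitors are better known for vimentin, glial fibrillary acidic protein (GFAP), nestin and synemin, of which vimentin and GFAP can assemble without a partner. The comparison therefore also asks whether a type I chain accompanies the type II gene krt8.

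All fish were adults carrying Tg(olig2:eGFP), in which olig2 regulatory sequence drives a green fluorescent protein. The labels call the sorted cells olig2:eGFP+ OPCs, that is, oligodendrocyte progenitor cells. There were 10 libraries from fish 7 days after the spinal cord was cut (lesion) and 10 from fish that had the same surgery with the cord left intact (sham). Each group drew on 9 cords, and a short piece on the rostral side of the cut, or at that level of an uncut cord, was dissociated so that living reporter-positive cells could be sorted. Nothing in the labels says that the 10 libraries of a group came from separate fish, so errors and p-values measure the spread between libraries, which may be technical. The titles place all lesion libraries in columns 7 to 12 and all sham libraries in columns 1 to 6, so position and group cannot be told apart. In such bulk samples fewer cells of a type and less RNA per cell cannot be told apart either.

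Totals ran from 7371761 to 9196227 counts in lesion libraries and from 7134670 to 10264810 in sham libraries, and 13562 to 16518 genes had a count in a lesion library, against 10328 to 13117 in a sham library. Lesion replicates 2, 9 and 10 resembled each other (Spearman correlation over genes 0.818 to 0.854) more than other pairs of lesion libraries did (0.737 to 0.811). Defining genes of the labelled lineage were abundant in both groups: OLIG2 averaged 7490 and 8302 CPM (counts per 1000000 counts of TMM-normalised library size) in lesion and sham libraries, and SOX10 averaged 672 and 719 CPM. All 13 matched genes of the oligodendrocyte list had counts.

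Of the 10 keratin and filament genes, 7 passed the filter on low counts. The fit over all 10467 tested genes called 6 of these higher and 1 lower after lesion at an adjusted p under 0.05. Over all tested genes it called 4.34% higher and 3.24% lower, 7.58% in all. Because the genes were picked with this contrast known, and because krt8 and VIM (ENSDARG00000044501) passed the filter through the lesion libraries, nothing is read from that count. The 6 were krt8, krt18a.1, both VIM genes, nes and GFAP, and the 1 was synm. krt18b, krt4 and krt5 were below the filter. Without lesion replicates 2, 9 and 10 the fit called 3 genes higher, which were krt8, VIM (ENSDARG00000010008) and nes. With the number of detected genes per library as a covariate it called the same 3 higher and 0 lower. That number did not overlap between the groups, being at least 13562 in lesion and at most 13117 in sham libraries. The covariate is therefore tied to the group, and a call lost with it cannot be read as absence of a difference.

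**Figure D1:**
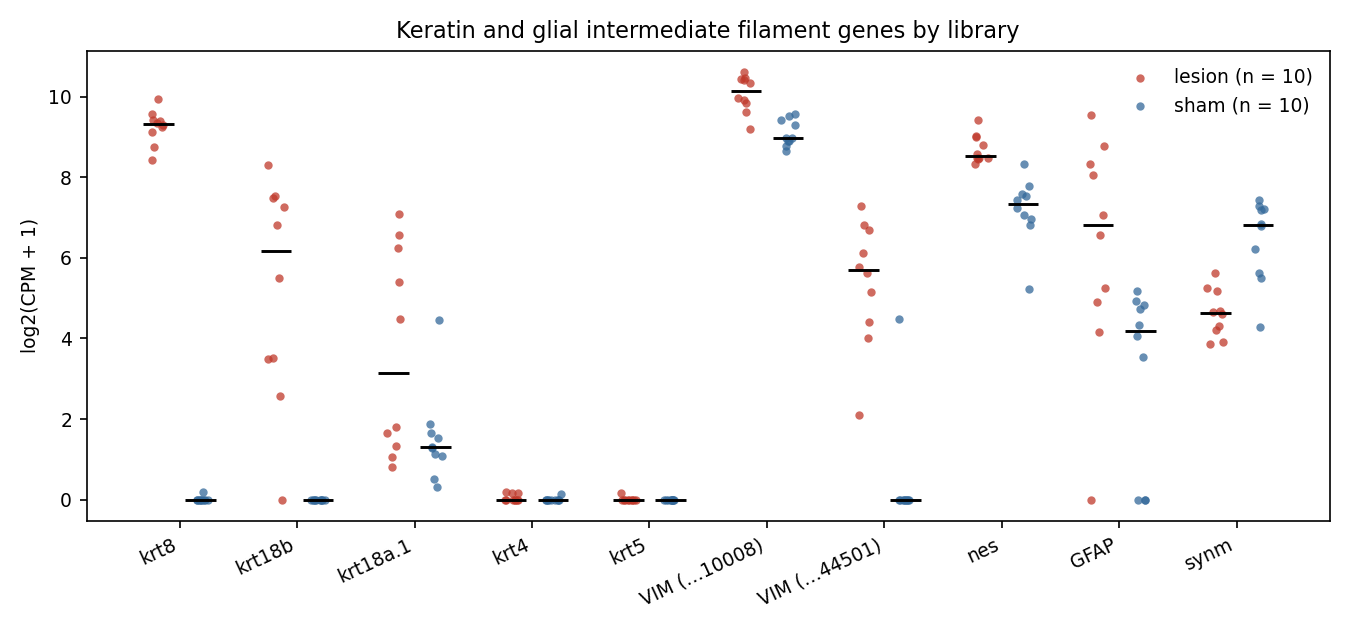
Each point is 1 library; the vertical axis is log2(CPM + 1), lesion libraries (red) stand left of sham libraries (blue), and bars are medians of 10 libraries. Lesion libraries of krt8 lie far above all sham libraries, those of krt18b and GFAP are widely spread, and synm is the gene whose median is lower after lesion.

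krt8 was the gene of the set whose groups stood furthest apart. The gene encodes keratin 8 and lies on chromosome 23, 10314656 to 10319318 (ENSDARG00000058358, build GRCz10, minus strand). It had 560, 426, 624, 677, 345, 646, 977, 679, 606 and 757 CPM in lesion replicates 1 to 10. In the sham libraries it had 1 count in all, in sham replicate 8, which equals 0.143 CPM there. All lesion libraries lay above all sham libraries, a separation found in this direction for 1.45% of the tested genes and in the other direction, where the set had 0 genes, for 0.554%. The mean was 630 ± 173 CPM after lesion and 0.0143 ± 0.0452 CPM in sham (SD, n = 10 each). Summed over libraries these were 51161 counts against 1, a ratio of levels of 51420 (95% interval 9229 to 2031000). The highest lesion library had less than 3 times the level of the lowest. A count of 0 allowed up to 0.29 to 0.429 CPM in the single sham libraries (3 counts of the library). These floors, like the intervals given here, cover counting error only.

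The other type II genes of the set were near 0 in both groups. krt4 and krt5 are keratins of fish skin. krt4 had 3 counts in all lesion libraries and 1 count in all sham libraries. krt5 had 1 count in all lesion libraries and 0 counts in sham libraries. krt5 lies on chromosome 23 from 10238226 to 10242488, on the same strand as krt8 and with no other annotated gene between them, and its counts did not follow those of krt8.

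A type I partner accompanied krt8 in most lesion libraries, at uneven levels. krt18b (ENSDARG00000028618, chromosome 6, 39362841 to 39367931, plus strand), which encodes a keratin 18, had 0 counts in all 10 sham libraries. In lesion replicates 1 to 10 it had 316, 152, 10.3, 179, 0, 112, 184, 4.93, 10.3 and 44.2 CPM. It was thus found in 9 of 10 lesion libraries and not detected in lesion replicate 5, where 3 counts would be 0.372 CPM. The mean of 101 ± 106 CPM after lesion was at least 277-fold higher than the sham floor of 3 counts per library, 0.365 CPM on average. Its SD was as large as its mean, whereas the SD of krt8 was much smaller than its mean. The gene missed the filter, which asked for enough counts in at least 10 libraries. krt4, on chromosome 6 from 39310962 to 39315491, had the few counts given above. zgc:158846, annotated between krt4 and krt18b, had 0 counts in both groups, so the high counts of krt18b did not extend to these genes.

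The other keratin 18 gene, krt18a.1 (ENSDARG00000018404, chromosome 23, 10412881 to 10416784, plus strand), lies near krt8 and was counted in every library of both groups. Lesion replicates 1 to 10 had 135, 2.46, 1.51, 41.4, 0.744, 75.2, 21.5, 2.15, 93.4 and 1.09 CPM. Sham libraries ran from 0.239 to 20.8 CPM with a median of 1.47 CPM. Of the lesion libraries 5 lay above the highest sham library, namely replicates 1, 4, 6, 7 and 9, and the other 5 fell within the sham range. The means were 37.4 ± 48.0 CPM after lesion and 3.34 ± 6.18 CPM in sham, with a log2 fold change of 3.48 ± 1.05 (SE). The log2 fold change ran from 2.98 without lesion replicate 1 to 4.71 without sham replicate 3, which held 171 of the 276 sham counts. Its call held in 6 of 20 fits that left out 1 library. krt18a.2, which follows krt18a.1 directly on the same strand, had 0 counts in both groups. Reads that match both keratin 18 genes equally could be lost or divided by the counting.

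The keratin 18 genes differed in which lesion libraries they marked. krt18b made up 98.4% of the summed krt18a.1 and krt18b counts in lesion replicate 2 and 97.6% in replicate 10. It made up 9.91% in lesion replicate 9 and 59.9% in replicate 6. Summed over both genes, lesion libraries ran from 0.744 CPM in replicate 5 to 451 CPM in replicate 1, with a median of 129 CPM, and sham libraries from 0.239 to 20.8 CPM. Lesion replicates 3, 5 and 8 had 11.9, 0.744 and 7.08 CPM and fell within the sham range, while the other 7 lay above it. The same 3 libraries had 624, 345 and 679 CPM of krt8. The top of the sham range was 1 library, replicate 3. The next sham library had 2.65 CPM, which lesion replicates 3 and 8 exceeded and replicate 5 did not.

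**Figure D2:**
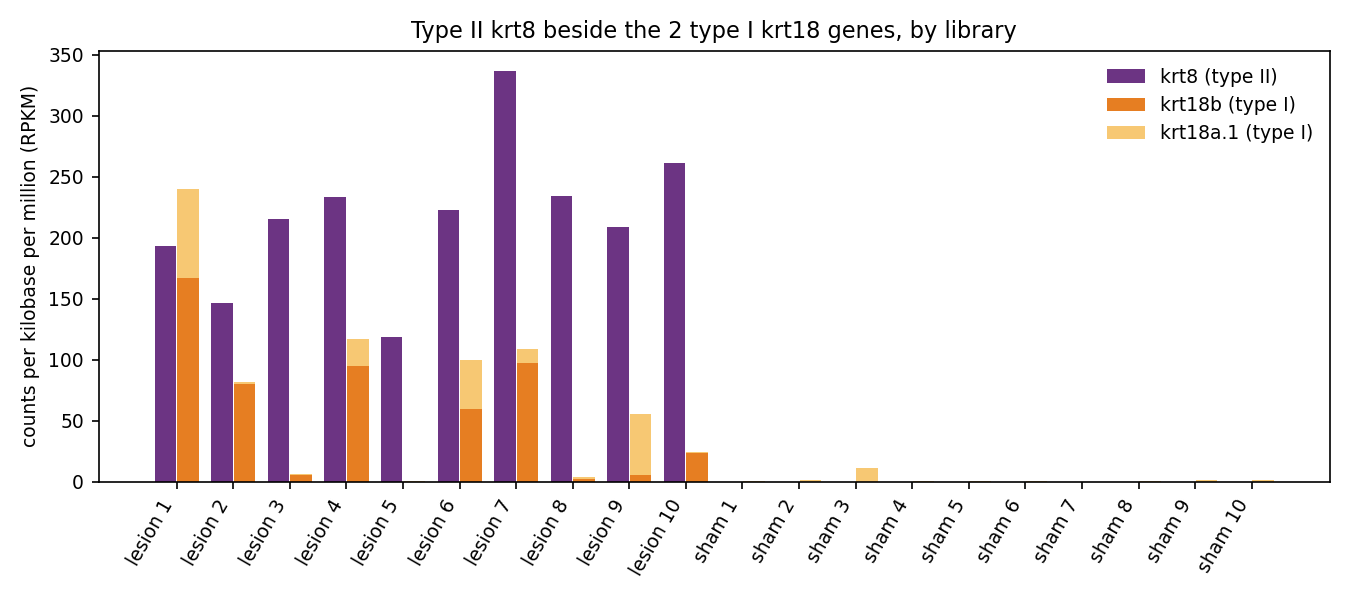
Bars give the level per transcript length (RPKM, CPM divided by exon length in kilobases) of krt8 (type II) and, stacked beside it, of krt18b and krt18a.1 (type I) in each of the 10 lesion and 10 sham libraries. krt8 is present in all lesion libraries, and the type I bars run from above krt8 in lesion replicate 1 to almost nothing in replicates 3, 5 and 8.

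To compare both types, counts were divided by exon length and summed over the 18 type I and 3 type II keratin genes with a symbol, typed by their names. The type I share was 21.5 ± 18.2% of the keratin signal per length over the 10 lesion libraries, with a median of 22.9%. By library it was 55.4, 35.7, 2.85, 33.6, 0.337, 31.7, 24.5, 1.59, 21.3 and 8.43% in replicates 1 to 10. Lesion replicate 1 therefore had more type I than type II signal, and the other 9 had more type II. Type II exceeded type I per length 1.80-fold in replicate 2 and 3.70-fold in replicate 9, against 34.1-fold in replicate 3, 62.0-fold in replicate 8 and 296-fold in replicate 5. As plain counts, lesion replicate 5 had 6 type I counts among 2787 keratin counts, 0.215% (95% exact binomial interval 0.0790 to 0.468%). Lesion replicate 1 had 4052 among 9086, 44.6% (43.6 to 45.6%). Sham replicate 3 was the only sham library with at least 100 keratin counts, and these were 171 counts of krt18a.1 and 1 of krt99, with 0 of krt8.

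Other type I genes were nearly absent. The 16 other type I genes, among them the skin keratins cyt1, cyt1l and krt17, had 91 counts in all lesion libraries together, with at most 35 in 1 library, against 11310 counts of krt18a.1 and krt18b. In sham libraries they had 17 counts. Of all 22 keratin genes 10 had 0 counts in both groups. KRT222, a keratin-like gene which entered neither type in the sums, had 757 counts in 7 lesion libraries and 635 counts in 3 sham libraries. Among the lesion libraries poor in keratin 18 it had 0 counts in replicate 3, 101 in replicate 5 and 105 in replicate 8, and it was highest in replicate 1, with 307. None of the 17 keratin genes outside the set passed the filter, so none was tested.

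Among lesion libraries the level of krt8 did not follow that of keratin 18 closely. This relation lies within 1 group and does not use the comparison with sham. Over the 10 lesion libraries log2(CPM + 1) of krt8 and krt18b had a Pearson r of 0.443 (two-sided permutation p = 0.201, adjusted p = 0.92 over 7 pairs) and a Spearman rho of 0.212 (permutation p = 0.557, adjusted p = 0.917). Without the 2 libraries farthest from the median of krt8, r was -0.356, so the positive value rested on those libraries. For krt18a.1 the r was 0.283 (permutation p = 0.424, adjusted p = 0.92) and rho was -0.0424 (permutation p = 0.917, adjusted p = 0.917), and r was -0.0477 without the 2 farthest. The 5 pairs with VIM (both genes), nes, GFAP and synm had r from 0.0277 to 0.326 and rho from 0.0667 to 0.406, with permutation p-values from 0.248 to 0.94 (adjusted 0.917 to 0.94) and r from -0.133 to 0.406 without the 2 farthest. None of the 7 pairs passed the threshold in the permutation test, with or without adjustment. The libraries may share 1 pool of cells, and 10 libraries leave all but strong relations undetectable.

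The genes whose levels across the 10 lesion libraries were most like those of krt8 were cremb, a modulator of cAMP-responsive transcription (Spearman rho 0.952), RAB9A, a small GTPase of endosomes (0.915), NDUFA9, a subunit of respiratory complex I (0.915), and tcerg1a, a regulator of transcription elongation (0.915). The most opposite were RAC3 (ENSDARG00000090062, -0.952), shisa9b (-0.927), HSPA8 (ENSDARG00000037403, -0.915), CRIP2 (ENSDARG00000033201, -0.915) and NPTN (ENSDARG00000103002, -0.903). These values are a description over 7747 genes and 10 libraries. Of these genes 59 had a rho above 0.8 or below -0.8. How many genes unrelated to krt8 would pass these limits by chance was not worked out, so nothing is read from the 59. Only tested genes with a count in all 10 lesion libraries were ranked, so krt18b, GFAP, krt4 and krt5 could not enter. No ranked gene of the set was among these 59. None of the 9 genes named here was called between lesion and sham (edgeR adjusted p 0.339 to 0.996).

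Vimentin, the main filament protein of immature glia and mesenchymal cells, was the most abundant of the set per transcript length in both groups. VIM (ENSDARG00000010008, chromosome 24, 32261512 to 32278038) ran from 585 to 1561 CPM in lesion libraries with a median of 1146 CPM, and from 403 to 756 CPM in sham libraries with a median of 502 CPM. All lesion libraries except replicate 8 lay above the highest sham library. The mean was 1129 ± 317 CPM after lesion and 559 ± 129 CPM in sham, a log2 fold change of 1.01 ± 0.17 (SE). That is a smaller fold than those of the keratins, on a far higher level in sham.

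The other VIM row (ENSDARG00000044501, chromosome 2, 50657088 to 50675544) carries the same symbol and was at 0 in 9 of 10 sham libraries. It had 34.7, 20.1, 48.2, 15.2, 103, 53.6, 68.9, 154, 3.31 and 111 CPM in lesion replicates 1 to 10. Of the sham libraries only replicate 8 had any, with 150 counts or 21.4 CPM. That same library held the single sham count of krt8. The means were 61.3 ± 48.4 CPM after lesion and 2.14 ± 6.78 CPM in sham, with a log2 fold change of 4.84 ± 1.42 (SE), which was 11.98 without sham replicate 8. Lesion replicate 8 had the highest level of this gene (154 CPM) and the lowest of the VIM gene on chromosome 24 among lesion libraries (585 CPM). Without lesion replicate 5, 7, 8 or 10 or sham replicate 10 its call was lost.

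The lesion and sham groups of nes, which encodes nestin, the filament protein of neural progenitors, were nearly separate. The gene (ENSDARG00000088805, chromosome 16) ran from 320 to 685 CPM in lesion libraries with a median of 368 CPM, and from 36.5 to 322 CPM in sham libraries with a median of 160 CPM. All lesion libraries except replicate 7 (320 CPM) lay above the highest sham library, replicate 1 (322 CPM). The log2 fold change was 1.38 ± 0.25 (SE).

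GFAP, the filament protein of astrocytes and radial glia (ENSDARG00000025301, chromosome 3), was the most uneven of the glial genes. Lesion replicates 1 to 10 had 752, 94.0, 264, 133, 37.2, 16.9, 322, 0, 29.1 and 441 CPM. Sham libraries ran from 0 to 35.5 CPM with a median of 17.3 CPM, and sham replicates 7, 8 and 10 had 0 counts. Thus 7 lesion libraries lay above all sham libraries, while replicates 6 and 9 fell in the sham range and replicate 8 had none, where 3 counts would be 0.322 CPM. The means were 209 ± 242 and 16.3 ± 13.3 CPM for lesion and sham, with a log2 fold change of 3.68 ± 1.05 (SE). Its call was lost without lesion replicate 1 or without replicate 10.

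Synemin, a large filament protein that joins vimentin-type filaments and binds their anchors, was lower after lesion. The gene synm (ENSDARG00000062350, chromosome 18) ran from 13.5 to 48.5 CPM in lesion libraries with a median of 23.6 CPM, and from 18.6 to 172 CPM in sham libraries with a median of 112 CPM. The means were 25.6 ± 11.3 and 103 ± 53.6 CPM for lesion and sham, and the log2 fold change was -2.01 ± 0.36 (SE). The groups overlapped, since the lowest sham library, replicate 10, lay below 7 lesion libraries.

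Per transcript length the order of the genes differed between the groups. In lesion libraries it was VIM (ENSDARG00000010008) with 607 ± 170 RPKM, krt8 with 217 ± 59.6 RPKM, nes with 93.2 ± 24.9 RPKM, GFAP with 78.8 ± 91.1 RPKM and krt18b with 53.6 ± 56.1 RPKM (SD, n = 10). VIM exceeded krt8, and krt8 exceeded nes, in 10 of 10 lesion libraries. From nes downwards the order was not settled: nes exceeded GFAP in 7 of 10, GFAP exceeded krt18b in 6 of 10, and krt18b exceeded VIM (ENSDARG00000044501), which averaged 36.5 ± 28.8 RPKM, in 6 of 10. In sham libraries VIM (ENSDARG00000010008) with 300 ± 69.2 RPKM was followed by nes with 35.8 ± 16.4 RPKM and synm with 31.9 ± 16.6 RPKM, which exceeded each other in 5 of 10 libraries each, and by GFAP with 6.16 ± 5.01 RPKM.

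Summed over the set, filament transcripts came to 1114 ± 310 RPKM in lesion libraries (734 to 1582) and 377 ± 76.1 RPKM in sham libraries (298 to 542). krt8 made up 20.2 ± 5.66% of this sum after lesion (12.2 to 31.9%) and 0.00120 ± 0.00378% in sham. Both VIM genes together made up 58.3 ± 6.26% after lesion and 79.6 ± 6.61% in sham. Keratin 18 made up 6.13 ± 5.22% after lesion and 0.506 ± 0.915% in sham, and GFAP 5.86 ± 5.82% and 1.71 ± 1.46%. synm made up 0.752 ± 0.352% after lesion and 8.52 ± 4.33% in sham, and nes 8.82 ± 2.64% and 9.63 ± 3.84%. These shares describe the same contrast as above and carry no test.

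**Figure D3:**
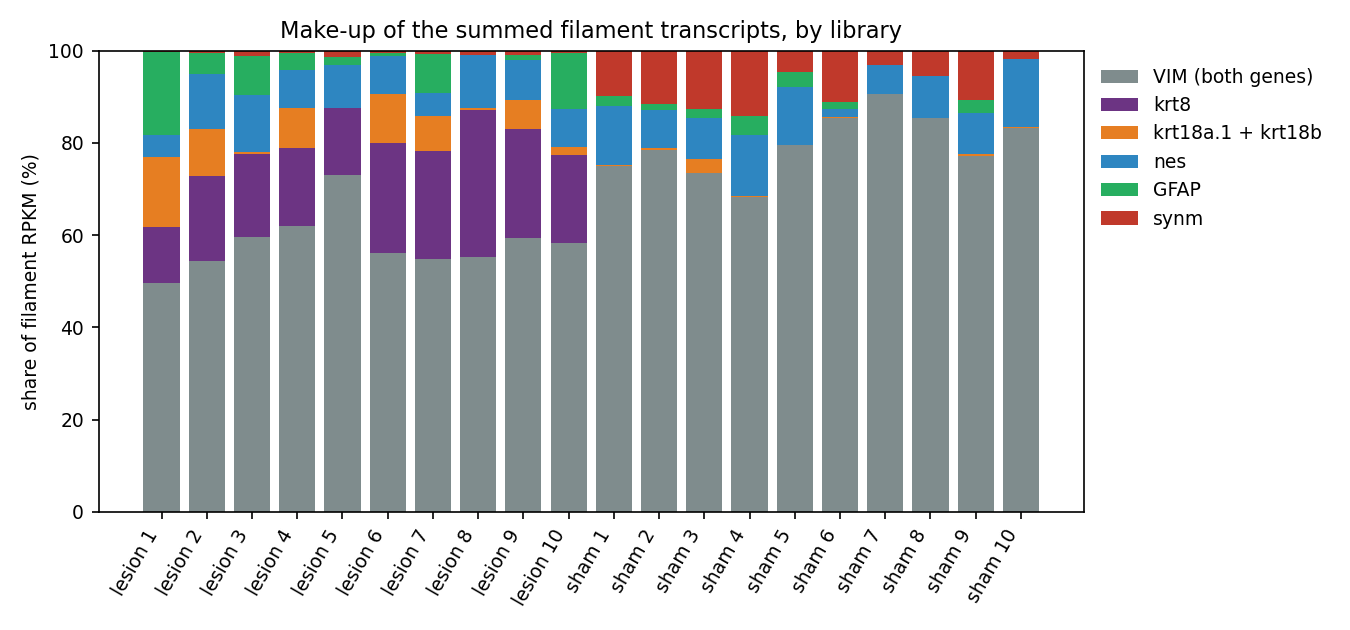
Each bar is 1 library, and colours give the percent of the summed RPKM of the set contributed by VIM (both genes), krt8, krt18a.1 with krt18b, nes, GFAP and synm. krt8 takes 12.2 to 31.9% in lesion libraries and almost nothing in sham libraries, where VIM and synm take more.

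Of the other intermediate filament genes, LMNA was called higher after lesion. LMNA encodes lamins A and C, which line the inside of the nucleus. It had 60.4 to 242 CPM in lesion libraries with a median of 108 CPM, while 7 of 10 sham libraries had 0 counts and the highest, replicate 2, had 8.94 CPM. The groups did not overlap. Having counts in 3 sham libraries, it passed the filter through the lesion libraries, where it is high, so its p-value is not independent of that filter. The mean was 117 ± 54.8 CPM after lesion and 0.920 ± 2.82 CPM in sham, a log2 fold change of 6.94 ± 1.13 (SE; edgeR adjusted p = 0.00014), which ran from 6.75 to 11.40 when single libraries were left out and was 11.40 without sham replicate 2. It was not called among the libraries whose titles place them in row B (edgeR adjusted p = 0.142), nor with the covariate (edgeR adjusted p = 0.0516).

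The lamin B genes gave smaller differences that did not pass the test. LMNB1 averaged 60.7 ± 24.9 CPM after lesion and 34.4 ± 44.5 CPM in sham (edgeR adjusted p = 0.721), and LMNB2 8.99 ± 6.66 and 4.43 ± 6.25 CPM (edgeR adjusted p = 0.816). The neurofilament light gene NEFL averaged 20.9 ± 15.6 CPM after lesion and 38.1 ± 41.5 CPM in sham (edgeR adjusted p = 0.805). In all, edgeR called 1 of 6 tested genes of this list higher and 0 lower, where it called 4.34% higher and 3.24% lower over all tested genes. The median log2 fold change was 0.78, against 0.03 over all tested genes. At an unadjusted p under 0.05 the numbers were the same, and limma-voom called 2 higher and 0 lower. Over all 10467 tested genes limma-voom called 1380 higher and 387 lower, more on the higher side than edgeR with 454. Genes of the list below the filter included IFFO2 (ENSDARG00000102911), found in 10 lesion and 0 sham libraries with 246 counts.

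Of the genes whose products anchor filaments, edgeR called PKP4 lower. Plakins such as plectin (pleca, plecb) and dystonin (DST) bind filaments, and plakoglobin (JUP) and the plakophilins belong to desmosomes, the junctions to which keratins attach. Of 22 matched genes 10 were tested, and edgeR called 0 higher and 1 lower, where the shares over all tested genes were 4.34% and 3.24%, so that these counts lie near the background. The median log2 fold change was 0.62, and 6 of 10 were positive. At an unadjusted p under 0.05, 1 was higher (PKP3) and 1 lower, while DESeq2 called 0 higher and limma-voom called 3 higher. Over all 10467 tested genes DESeq2 called 541 higher and limma-voom 1380. PKP4, a junctional relative of the plakophilins, fell to 73.5 ± 38.6 CPM after lesion, against 187 ± 80.5 CPM in sham (log2 fold change -1.35, edgeR adjusted p = 0.00841), and was not called without lesion replicates 2, 9 and 10 (edgeR adjusted p = 0.0741) or with the covariate, where its log2 fold change was -0.59. PKP3 averaged 26.2 ± 17.3 CPM after lesion and 3.45 ± 9.96 CPM in sham, and 1 library decided its value: the edgeR adjusted p was 0.289, and 0.00241 without sham replicate 9. The value of pleca also rested on 1 library: the edgeR adjusted p was 0.725, and 0.00442 without sham replicate 8. PKP3 had counts in 10 lesion and 3 sham libraries, and pleca in 9 and 4. Both passed the filter mostly through the lesion libraries, so these p-values are not independent of that filter. Both desmoplakin genes were nearly absent, with 19 and 103 counts in all lesion libraries and 20 and 14 counts in all sham libraries.

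**Figure D4:**
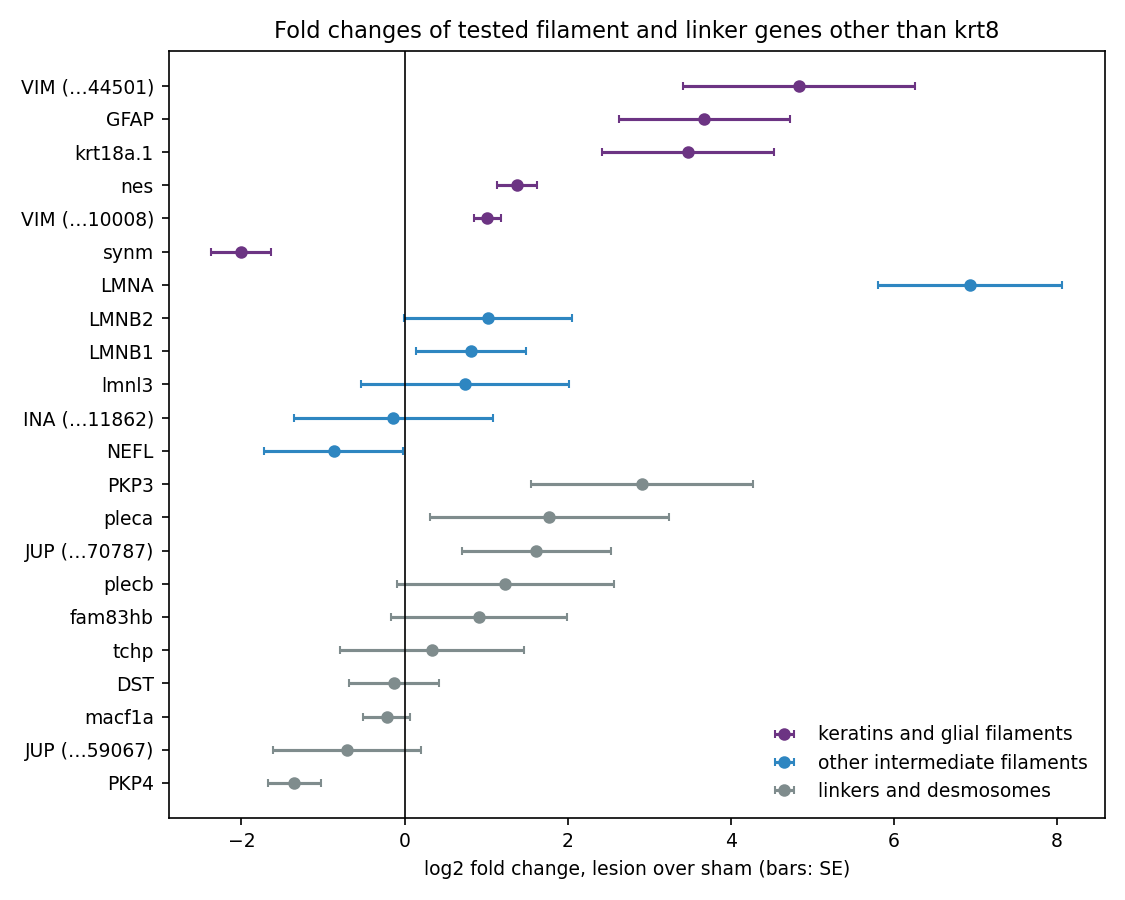
Points are log2 fold changes, lesion over sham, from the edgeR fit and bars are standard errors, for genes of the set (purple), other intermediate filament genes (blue) and linker and desmosome genes (grey) that passed the filter on low counts. krt8 is left out because it had 1 sham count, so that its fitted value has no stable size; LMNA lies furthest to the right and synm furthest to the left.

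Markers of other cells were looked up beside these values. The epithelial list had counts for 18 of 21 genes, while cldn7b, spint1a and st14a had none. Its summed level ran from 53.2 to 510 CPM in lesion libraries and from 12.7 to 90.6 CPM in sham libraries, and almost all of the difference was cldn7a, a claudin of tight junctions. cldn7a averaged 177 ± 149 CPM in lesion libraries and 2.31 ± 7.30 CPM in sham libraries, with counts in 1 sham library, replicate 2 (log2 fold change 6.23, edgeR adjusted p = 0.00219), and its call was lost with the covariate (edgeR adjusted p = 0.482). Like LMNA, it passed the filter through the lesion libraries. Without cldn7a the list ran from 9.55 to 35.1 CPM after lesion and from 11.3 to 90.6 CPM in sham. The adhesion genes epcam and cdh1 had 10.3 ± 4.01 and 0.367 ± 0.185 CPM after lesion, against 8.86 ± 1.13 and 0.611 ± 0.635 CPM in sham. TP63, the master regulator of stratified epithelium, had counts in 5 lesion libraries, at most 9.46 CPM, and in 0 sham libraries. GRHL1, also below the filter, had 337 counts in lesion and 55 counts in sham libraries. Others below the filter went the other way: spint1b had 234 counts in lesion and 2464 in sham libraries, anxa1b 0 and 92, and anxa1c 0 and 34.

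The list of radial and ependymal glia, cells that line the central canal and can carry GFAP, vimentin and nestin, had counts for 18 of 18 genes. Its sum ran from 4541 to 8724 CPM in lesion libraries and from 7107 to 11510 CPM in sham libraries, and AQP4 had 0 counts after lesion and 1 in sham. In sham libraries both GLUL genes below made up most of this sum. FABP7 (ENSDARG00000007697) averaged 1886 ± 741 CPM after lesion and 754 ± 560 CPM in sham (edgeR adjusted p = 0.0692). Of 12 tested genes edgeR called 3 higher and 3 lower, where it called 4.34% higher and 3.24% lower over all tested genes. The log2 fold change was positive for 7 of the 12, with a median of 0.74. SLC1A3 (ENSDARG00000104431), a glutamate transporter of glia, fell to 109 ± 41.2 CPM after lesion, against 400 ± 78.8 CPM in sham, and all lesion libraries lay below all sham libraries (log2 fold change -1.88, edgeR adjusted p = 3.95e-07). Both GLUL genes, which encode glutamine synthetase, fell as well. GLUL (ENSDARG00000100003) averaged 1404 ± 281 and 3036 ± 819 CPM in lesion and sham libraries (log2 fold change -1.11, edgeR adjusted p = 1.16e-05). GLUL (ENSDARG00000099776) averaged 2275 ± 775 and 4082 ± 719 CPM in lesion and sham libraries (log2 fold change -0.84, edgeR adjusted p = 0.000716). FOXJ1, a factor of ciliated cells, rose to 81.2 ± 97.2 CPM after lesion, against 0.446 ± 1.24 CPM in sham (edgeR adjusted p = 0.000484), a call lost with the covariate (edgeR adjusted p = 0.238). Its highest levels were in lesion replicates 5 (289 CPM) and 1 (225 CPM), of which replicate 5 had the least keratin 18 and replicate 1 the most. FOXJ1 had counts in 3 sham libraries and passed the filter through the lesion libraries. S100B and NOTCH3 (below) were also called higher. S100B averaged 375 ± 138.5 CPM after lesion and 165 ± 79.9 CPM in sham (log2 fold change 1.18, edgeR adjusted p = 0.00629).

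The fibroblast and pericyte list, cells that also carry vimentin, had counts for 13 of 16 genes, with PDGFRB, LUM and POSTN (ENSDARG00000043806) at 0. Its sum ran from 45.9 to 289 CPM in lesion libraries and from 36.3 to 185 CPM in sham libraries. Of 3 tested genes edgeR called NOTCH3 higher (log2 fold change 4.39, edgeR adjusted p = 0.0398). NOTCH3 is a receptor of pericytes that is also in the radial glia list. Its level averaged 14.8 ± 12.4 and 0.687 ± 1.28 CPM in lesion and sham libraries. NOTCH3 was counted in 9 lesion and 4 sham libraries. The gene passed the filter mostly through the lesion libraries, so its p-value is not independent of that filter. TAGLN (ENSDARG00000033466), an actin-binding protein of contractile cells, was below the filter, with 1466 counts in 7 lesion libraries and 0 counts in sham libraries. The microglia list ran from 0.126 to 530 CPM in lesion libraries and from 0.122 to 171 CPM in sham libraries. MPEG1 (ENSDARG00000078569 and ENSDARG00000055290), LCP1, c1qa, c1qb and marco were at 0. A further MPEG1 row (ENSDARG00000043093) had 1 count in lesion libraries and 120 counts in sham libraries. The endothelial list ran from 2.33 to 102 CPM and from 0 to 26.4 CPM in lesion and sham libraries, with pecam1a and etsrp at 0. The muscle list ran from 10.98 to 23.05 CPM and from 4.003 to 21.24 CPM in lesion and sham libraries. The 4 tested genes of the microglia, endothelial and muscle lists had edgeR adjusted p-values from 0.442 to 0.998. The part of these other cells in the keratin and filament values was not tested.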

How the data were processed

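RNA-seq read counts per gene were deposited by the authors as 1 table of 20 libraries. The submitters' processing notes name bcl2fastq 2.19.1, GSNAP, featureCounts 1.6.2 and GRCz10. The table's own header, per the file headers, records Ensembl release 87, a least mapping quality of 1 and no use of strand (setting 0), so overlapping genes cannot be told apart. Of 32358 rows, 92 spike-ins (2 counts) were left out.

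The genes and all lists were chosen with earlier results of these data known. Symbols came from a table of Ensembl identifiers covering 26433 genes, and 11 of 197 listed symbols had no row. Keratin types followed gene names, because the protein sequences planned for this were not used here. Named genes were the set, other keratins and filament genes, up to 4 tested genes of each other list with the smallest p, and the 5 genes most and 5 least like krt8, of which 1 is not reported here. TP63, TAGLN, cdh1, AQP4, OLIG2, SOX10, DST, plecb, the desmoplakin genes, ISL1, CHAT, gap43, GAD1 and ELAVL3 were added after their values were seen. The same holds for CSPG4, S100B, FABP7 (ENSDARG00000007697), zgc:158846, GRHL1, spint1b, anxa1b, anxa1c and MPEG1 (ENSDARG00000043093).

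Lesion was compared with sham in edgeR 4.0.16 (R 4.3.3) with filterByExpr, TMM and the quasi-likelihood F test, two-sided, adjusted by Benjamini-Hochberg over 10467 genes, threshold 0.05. The SE is the size of the log2 fold change over the square root of F. DESeq2 1.42.0, limma 3.58.1 and the settings of the closing part served as alternatives. Correlations used 100000 resamples (scipy 1.17.1). The test was checked on simulated counts of 9713 genes, where it made 0 false calls but missed many differences that had been built in. Where the built-in difference was 2-fold, the test found 9 genes out of 61. It found 23 out of 62 at 4-fold, and 35 out of 62 at 16-fold. A gene without a call may therefore still differ between lesion and sham.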

Additional observations from a re-analysis of the deposited data

Results flagged for a closer look

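A single library stood apart from the rest of its group by the Dixon criterion, applied to CPM, in 7 of 32 groups examined. For normally distributed values chance flags about 1 in 20 groups. CPM need not be so distributed, so the chance rate here is not known. krt18a.1 had 20.8 CPM in sham replicate 3, against 2.65 CPM in the next sham library, and that library had 0 counts of krt8. LMNA reached 242 CPM in lesion replicate 8, against 155 CPM in the next, and LMNB1 reached 121 CPM in the same library, against 75.2 CPM in the next. IFFO2 (ENSDARG00000062101) was also highest in lesion replicate 8, with 6.01 CPM against 1.83 CPM. LMNB1 reached 149 CPM in sham replicate 3, against 61.4 CPM. INA (ENSDARG00000011862), a neuronal filament gene, reached 68.7 CPM in sham replicate 5, against 25.1 CPM. IFFO1 (ENSDARG00000062108) reached 30.4 CPM in sham replicate 6, against 5.72 CPM. Neither krt8 nor krt18b was among the groups with such a library. For their sham groups, at or near 0 throughout, this says nothing. The sham group of VIM (ENSDARG00000044501) is not among the flagged groups either, although replicate 8 had 21.4 CPM and all other sham libraries had 0 counts. The lack of a flag there does not mean that no library stood apart.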

How the results depend on the processing

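The set was chosen by this comparison, so its calls are listed as values and nothing is read from them. It had 3 genes higher with detected genes as a covariate, 3 without lesion replicates 2, 9 and 10 and 3 in row A alone, and 0 lower with the covariate and in row B alone. When single libraries were left out it had 4 to 7 higher. Over all genes, 2780 of 23989 were higher without a filter, 1380 of 10467 in limma-voom, 207 of 10437 in row B alone and 140 of 10467 with the covariate. Lower were 36 with the covariate, 237 of 11072 without lesion replicates 2, 9 and 10, and 40 in row B alone. Other keratins had 3 higher without a filter. Other filament genes had 6 higher without a filter, 2 in limma-voom, and 0 with the covariate and in row B alone. Linkers had 4 higher without a filter, 3 in limma-voom, 1 in row B alone and 0 to 1 with single libraries left out, and 0 lower with the covariate, without lesion replicates 2, 9 and 10 and in row B alone. INA (ENSDARG00000011862) turned to a log2 fold change of 2.37 in limma-voom and 0.039 in row A alone (-0.41 to 0.51 with single libraries left out), NEFL to 0.81 in limma-voom, lmnl3 to -0.039 in row B alone and pleca to -2.51 with the covariate. The type I share was 21.4% from the set alone, 22.4% with KRT222 (added after seeing the data) and 17.8 to 23.9% with single lesion libraries left out. The r of krt8 with nes was -0.068 without TMM; without lesion replicates 2, 9 and 10 it was -0.00292, and that with VIM (ENSDARG00000044501) -0.172 and with synm -0.0173. With single lesion libraries left out, r ran from -0.185 to 0.327 for nes, from -0.000559 to 0.430 for VIM (ENSDARG00000044501), from -0.110 to 0.518 for synm, from -0.0384 to 0.636 for krt18b and from -0.00709 to 0.399 for GFAP. The cause of these changes was not tested, and the covariate of detected genes is tied to the group. No paired analysis was made, because nothing in the labels pairs a lesion library with a sham library. Genes below the filter of the main fit were tested without a filter, and in fits on fewer libraries where they passed the filter there. krt18b was called higher in row B alone and without a filter.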

Other observations

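PRPH, the gene of peripherin, a filament protein of motor and sensory neurons, had 1466 counts in 8 lesion libraries and 0 counts in sham libraries, at least 49.4-fold above the sham floor of 3 counts per library. Its highest levels were 61.3 CPM in lesion replicate 4, 41.4 CPM in replicate 2 and 41.1 CPM in replicate 9, and replicates 7 and 8 had 0 counts. It was too sparse for the test. Of the neuronal list, ISL1, a factor of motor neurons, had 164 CPM in lesion replicate 2, 61.8 CPM in replicate 4 and 24.7 CPM in replicate 9, and was counted in 6 lesion libraries and in 0 sham libraries. CHAT, the enzyme that makes acetylcholine, was counted in lesion replicates 2 (13.3 CPM), 9 (20.3 CPM) and 10 (1.93 CPM), and in 0 sham libraries. The list as a whole had counts for 14 of 16 genes, with gap43 and GAD1 (ENSDARG00000027419) at 0, and its sum ran from 361 to 1251 CPM in lesion libraries and from 357 to 1003 CPM in sham libraries. gap43 lies on an unplaced scaffold of the build, as do spint1a and PDGFRB above. Whether this affects their counts of 0 was not tested. ELAVL3, a general neuronal marker, averaged 225 ± 42.1 CPM in lesion libraries and 281 ± 57.0 CPM in sham libraries (edgeR adjusted p = 0.245). The part of neurons in the PRPH counts was not tested.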
